A study of Homo sapiens with 8 samples.

Results

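Aminoacyl-tRNA synthetases join each amino acid to its transfer RNA, the charging step that precedes every round of translation. The 35 synthetase genes described here were taken from a list of symbols: 19 enzymes of the cytosol and 16 of mitochondria, out of 18404 genes measured. Every listed symbol was found, each under a probe set that the platform annotation pairs with exactly 1 symbol. VARS2 alone had several such probe sets, and the one with the highest mean was used.

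The samples were 8 cultures of HepG2, a human liver tumour line that keeps many hepatocyte functions, each hybridised to 1 single-channel whole-transcript array. The 4 H2O2 cultures, titled senescent, had been exposed to 0.5 mM hydrogen peroxide for 60 minutes, and the 4 untreated cultures to medium alone. Per the labels, both were then kept for 5 days before their senescent phenotype was tested, and when RNA was taken is not stated apart from this. All groups are the same unmodified line, and the submitters describe the 4 samples per condition as biological replicates.

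Cells keep separate sets of these enzymes. The cytosolic enzymes serve the translation of nuclear messages, and 7 of the 19 sit in the multisynthetase complex. The mitochondrial enzymes, also encoded in the nucleus, are imported and serve the few respiratory-chain proteins encoded by mitochondrial DNA. GARS1 and KARS1 are exceptions, since each gene gives both forms; they are counted here as cytosolic. When amino acids run short the transcription factor ATF4 raises many cytosolic synthetase genes together with genes of amino acid synthesis and uptake. WARS1 is in addition a classic interferon-gamma-induced gene. By enzyme architecture the synthetases fall into class I and class II.

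Promoter windows from RefSeq (GRCh38.p14, 250 bases before to 50 bases after an annotated start) were held for 30 of the 35 genes; AARS2, LARS1, VARS1, VARS2 and YARS1 had none here. The windows were searched on both strands for TGATGNAA, the core of the C/EBP-ATF response element through which ATF4 acts. It was found in 8 of the 30 genes, while 4.46% of the 27305 genes with a window held it. Of these 8, 7 were cytosolic enzymes and 1, YARS2, mitochondrial. All 7 belong to the 13 cytosolic enzymes listed as genes of the amino acid response, of which 10 had a window. The 7 stretches below are shown because the same core recurs in them. Each reads 5′ to 3′ on the strand that spells the motif, which is in capitals:

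AARS1, chr16:70289675-70289704, plus strand: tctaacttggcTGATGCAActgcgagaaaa
CARS1, chr11:3057407-3057436, plus strand: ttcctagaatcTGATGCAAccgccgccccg
GARS1, chr7:30594834-30594863, minus strand: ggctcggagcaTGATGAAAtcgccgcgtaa
IARS1, chr9:92293692-92293721, plus strand: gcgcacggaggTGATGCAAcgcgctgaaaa
MARS1, chr12:57488053-57488082, minus strand: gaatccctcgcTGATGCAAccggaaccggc
NARS1, chr18:57621804-57621833, minus strand: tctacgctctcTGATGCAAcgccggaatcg
TARS1, chr5:33440956-33440985, minus strand: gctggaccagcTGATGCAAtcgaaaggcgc

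In 6 of the 7 the core read TGATGCAA, and in GARS1 it read TGATGAAA. The match lay within 35 bases of an annotated start in all of them except AARS1, where it lay between bases -187 and -180. A match is a stretch of letters and not a measured binding site.

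A second stretch is shown because 2 of the enzymes share it. HARS1 and HARS2, which charge histidine in the cytosol and in mitochondria, are transcribed away from each other from starts with 84 bases between them, at chr5:140691371-140691454, of which 59.5% are G or C. The plus strand, in the direction of HARS2, reads:

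HARS1-HARS2 interval: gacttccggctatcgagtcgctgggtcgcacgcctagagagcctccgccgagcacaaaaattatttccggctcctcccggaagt

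The interferon-stimulated response element, searched as GAAA, any 2 bases and GAAA again, occurred in 4.38% of all genes with a window and in 2 synthetases, EARS2 and WARS1. It is shown for WARS1, where it lay between bases -55 and -46 of the downstream of its annotated starts, on the gene's own strand:

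WARS1, chr14:100375383-100375412, minus strand: tttcagaaggGAAACTGAAAgaaagagggg

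The E-box CACGTG, read by MYC among other factors, was in 8.78% of all genes with a window and in 4 synthetases, CARS2, EARS2, IARS1 and MARS2.

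The array medians lay between 6.87 and 6.92 in H2O2 cultures and between 6.85 and 6.93 in untreated cultures, on the log2 scale. CDKN1A, the cell-cycle inhibitor p21, was higher by 2.36 ± 0.067 in H2O2 cultures (SE, n = 4 each). MKI67, LMNB1 and HMGB2, which fall in arrested cells, had log2 differences of -1.32 ± 0.10, -1.07 ± 0.10 and -1.83 ± 0.11. Of 9 measured hepatocyte markers 6 fell and 1 rose, with summed log2 values of 104.7 to 107.3 in H2O2 cultures and 108.9 to 109.4 in untreated cultures. The falls were largest for TF (-0.90 ± 0.094), FGB (-0.71 ± 0.14) and AHSG (-0.58 ± 0.081), and TTR rose (0.26 ± 0.084).

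Markers of other cell types moved in part. Of 5 measured leukocyte markers 2 rose and 0 fell, with summed log2 values of 40.2 to 40.7 in H2O2 cultures and 39.7 to 39.8 in untreated cultures. CD68, also a lysosomal protein, rose by 0.80 ± 0.071 and CD14 by 0.27 ± 0.064. PTPRC, the defining leukocyte marker, and the T cell marker CD3E lay below the array median on all arrays and were not called, and LYZ was bright in both groups (12.83 in H2O2 and 12.90 in untreated cultures). Of 6 fibroblast and stellate cell markers 1 rose and 1 fell, with sums of 37.6 to 39.0 in H2O2 cultures and 38.9 to 39.2 in untreated cultures. PDGFRB averaged 6.97 in H2O2 cultures and 8.13 in untreated cultures (-1.15 ± 0.088), and COL1A1 rose (0.41 ± 0.076), while COL1A2, COL3A1, DCN and LRAT lay below the array median and were not called. Of 6 endothelial markers 1, CDH5, fell (-0.25 ± 0.073), with sums of 36.6 to 37.9 in H2O2 cultures and 36.9 to 37.7 in untreated cultures. CDH5 lay below the array median on 5 of 8 arrays. PECAM1, VWF, KDR and TEK lay below the array median, CLDN5 above it, and these 5 were not called. The part of these markers in the synthetase results was not tested. Over all genes 34.0% were called, 19.2% higher and 14.8% lower.

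The comparison asked which transcripts differ between HepG2 cells made senescent with H2O2 and untreated cells. Synthetase genes changed by small amounts and in both directions. Of the 16 mitochondrial enzymes 8 fell, NARS2 the most at 1.79-fold, and 1, HARS2, rose. Of the 19 cytosolic enzymes 4 fell and 3 rose, WARS1 the most at 1.41-fold. A call is an adjusted p under 0.05 from limma fitted on all 18404 genes with Benjamini-Hochberg adjustment, and each log2 difference is the H2O2 mean less the untreated mean, given with its standard error. Over all genes 34.0% were called, 19.2% higher and 14.8% lower, and 16 of the 35 synthetases, 4 higher and 12 lower, stand beside that background. The 8 mitochondrial enzymes called lower, of 16, stand beside the 14.8%. That background includes 7138 genes whose mean lay below the array median, where no synthetase lay. With genes under the median of gene means left out, 2338 were called lower and 2772 higher, against 2732 and 3527 with all genes. The share called was thus larger among brighter genes, and 34.0% and 14.8% understate the background for the synthetases. The share among genes as bright as the synthetases was not computed. In these bulk cultures, fewer cells of a type and less RNA per cell cannot be told apart.

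The median log2 difference was 0.014 over the 19 cytosolic enzymes and -0.17 over the 16 mitochondrial enzymes, against -0.022 over all genes. For the mitochondrial enzymes, the median deviation from the untreated mean was -0.12, -0.085, -0.18 and -0.20 in H2O2 replicates 1 to 4. In untreated replicates 1 to 4 it was -0.0030, 0.039, 0.0018 and -0.070. The 4 H2O2 arrays thus lay below the 4 untreated arrays, by a narrow margin between H2O2 replicate 2 and untreated replicate 4. Over all genes the median deviation in these arrays was -0.033 and -0.014. The margin for the mitochondrial enzymes was no wider than that array-wide difference. For the cytosolic enzymes the median deviation ran between -0.021 and 0.016 in H2O2 arrays, inside the untreated range of -0.12 to 0.089. Of the 16 enzymes called, 15 changed by less than 0.5 on the log2 scale, and the exception was NARS2. No synthetase lay below the array median on any array, and each was kept when dim genes were left out.

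**Figure D1:**
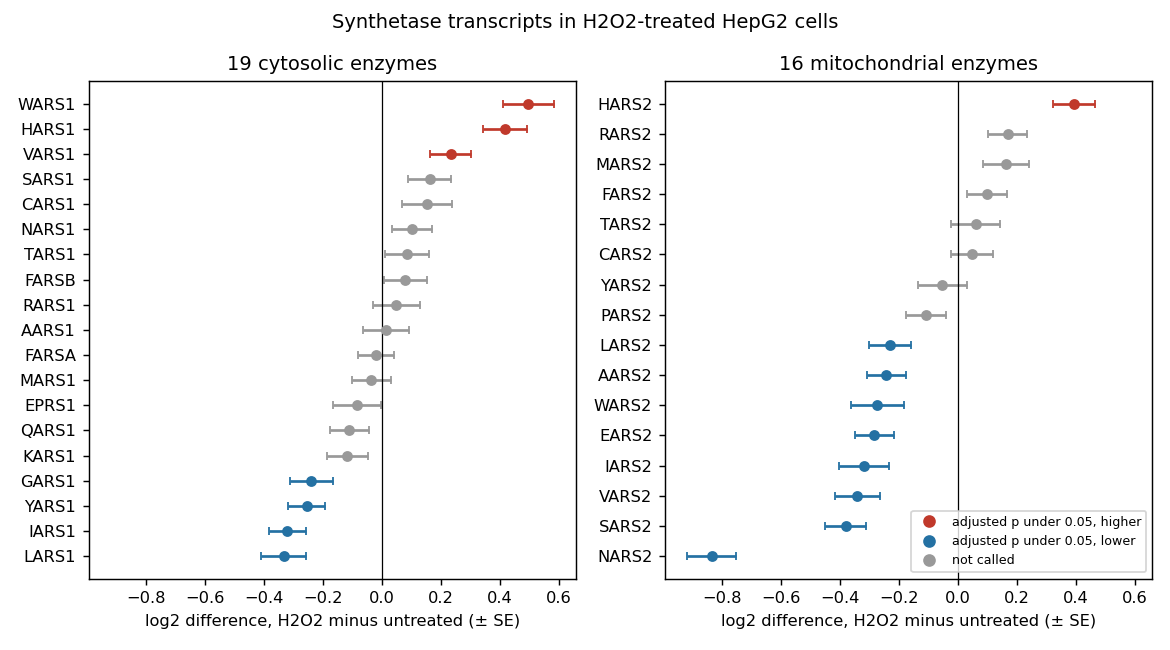
Log2 difference, H2O2 minus untreated, with its standard error, for the 19 cytosolic enzymes (left) and the 16 mitochondrial enzymes (right), n = 4 arrays per group. Red points are called higher, blue points called lower and grey points not called at an adjusted p under 0.05. NARS2 lies at -0.84, WARS1 at 0.50, and every other enzyme between them.

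Among the mitochondrial enzymes NARS2, which charges asparagine, fell most. Its log2 values were 9.13, 9.23, 8.87 and 8.98 in H2O2 replicates 1 to 4, against 9.99, 9.88, 9.88 and 9.82 in untreated replicates 1 to 4. Every H2O2 array lay at least 0.5 below every untreated array, and the level was 1.79-fold lower (log2 difference -0.84 ± 0.083, limma adjusted p = 3.22e-06). In each of the 15 other settings tried, NARS2 remained called, with a log2 difference between -0.90 and -0.78.

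SARS2, the mitochondrial seryl-tRNA synthetase, followed with 8.65, 8.59, 8.49 and 8.43 in H2O2 arrays, against 8.91, 9.01, 8.90 and 8.88 in untreated arrays. The groups did not overlap (-0.38 ± 0.070, limma adjusted p = 0.00073). VARS2, for valine, read 9.29, 9.32, 9.48 and 9.17 in H2O2 arrays, against 9.63, 9.62, 9.63 and 9.76 in untreated arrays (-0.34 ± 0.077, limma adjusted p = 0.00315). The other probe set of VARS2 gave a log2 difference of -0.36, again without overlap, at 7.96 to 8.19 in H2O2 and 8.36 to 8.51 in untreated arrays.

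IARS2, for isoleucine, had 9.51, 9.67, 9.45 and 9.50 in H2O2 arrays, against 9.91, 9.82, 10.02 and 9.65 in untreated arrays. It was called (-0.32 ± 0.085, limma adjusted p = 0.00929) although H2O2 replicate 2 lay just above untreated replicate 4. EARS2, for glutamate, had 8.40 to 8.50 in H2O2 arrays and 8.69 to 8.84 in untreated arrays, with no overlap (-0.28 ± 0.066, limma adjusted p = 0.00379). AARS2, for alanine, had 7.46, 7.41, 7.35 and 7.45 in H2O2 arrays, against 7.56, 7.69, 7.68 and 7.71 in untreated arrays, also apart (-0.24 ± 0.066, limma adjusted p = 0.0103).

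The calls of WARS2 and LARS2 were less firm. WARS2, the mitochondrial tryptophanyl-tRNA synthetase, read 8.55, 8.56, 8.16 and 8.34 in H2O2 arrays, against 8.77, 8.60, 8.74 and 8.61 in untreated arrays (-0.27 ± 0.091, limma adjusted p = 0.0321). Its groups were apart by a narrow margin. The call was lost without H2O2 replicate 3 (adjusted p = 0.0721), H2O2 replicate 4 (adjusted p = 0.0862), untreated replicate 1 (adjusted p = 0.095) or untreated replicate 3 (adjusted p = 0.0757). LARS2, for leucine, read 8.57, 8.66, 8.61 and 8.51 in H2O2 arrays, against 8.83, 8.86, 8.92 and 8.67 in untreated arrays (-0.23 ± 0.072, limma adjusted p = 0.0221). That call was lost without any 1 of H2O2 replicates 1 and 4 and untreated replicates 1, 2 and 3, at adjusted p-values between 0.0507 and 0.0751.

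HARS2 was the one mitochondrial enzyme that rose. It had 8.72, 8.78, 8.58 and 8.81 in H2O2 arrays, against 8.31, 8.27, 8.40 and 8.33 in untreated arrays, a 1.31-fold difference with no overlap (0.39 ± 0.070, limma adjusted p = 0.000567). The 7 mitochondrial enzymes not called lay between -0.11 ± 0.068 (PARS2, proline) and 0.17 ± 0.065 (RARS2, arginine). YARS2, for tyrosine, had -0.053 ± 0.082, and CARS2 (cysteine), TARS2 (threonine) and FARS2 (phenylalanine) had 0.048, 0.060 and 0.098. RARS2 was borderline: its H2O2 arrays read 9.88, 9.94, 9.78 and 9.86, all above the untreated arrays at 9.73, 9.73, 9.62 and 9.70, at a limma adjusted p of 0.0632. It passed without H2O2 replicate 3 (adjusted p = 0.0314), as did MARS2, for methionine, which had 0.16 ± 0.078 on all arrays (adjusted p = 0.137) and 0.21 without that array (adjusted p = 0.045). Among the alternatives described below, RARS2 also passed with dim genes left out, with a trended robust prior and with array weights. MARS2 also passed with array weights.

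Of the cytosolic enzymes, WARS1 rose most. This tryptophanyl-tRNA synthetase had 9.66, 9.75, 9.57 and 9.72 in H2O2 arrays, against 9.21, 9.40, 9.11 and 8.99 in untreated arrays. The groups did not overlap and the level was 1.41-fold higher (0.50 ± 0.087, limma adjusted p = 0.000471). HARS1, for histidine, had 10.56, 10.63, 10.43 and 10.43 in H2O2 arrays, against 10.15, 10.20, 10.07 and 9.97 in untreated arrays (0.42 ± 0.075, limma adjusted p = 0.000605). Its rise was 1.34-fold, close in size to that of HARS2 across the shared 84 bases printed above. The HARS1 and HARS2 proteins are close relatives, probe sequences were not used here, and whether their probe sets share signal was not tested.

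VARS1, for valine, was higher by 0.23 ± 0.070 (limma adjusted p = 0.0181), at 9.46, 9.37, 9.49 and 9.45 in H2O2 arrays, against 9.12, 9.30, 9.29 and 9.13 in untreated arrays. The groups were apart, but the call was lost without untreated replicate 1 (adjusted p = 0.0666) or untreated replicate 4 (adjusted p = 0.0569).

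LARS1, for leucine, fell most among the cytosolic enzymes. It read 9.31, 9.49, 9.32 and 9.38 in H2O2 arrays, against 9.75, 9.62, 9.85 and 9.60 in untreated arrays (-0.33 ± 0.076, limma adjusted p = 0.00351). IARS1, for isoleucine, read 11.02, 11.13, 11.08 and 11.08 in H2O2 arrays, against 11.41, 11.41, 11.46 and 11.31 in untreated arrays (-0.32 ± 0.064, limma adjusted p = 0.0013). Both belong to the multisynthetase complex and neither overlapped between groups.

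YARS1, for tyrosine, was tightly grouped at 9.62, 9.68, 9.67 and 9.67 in H2O2 arrays, against 9.89, 9.93, 10.01 and 9.84 in untreated arrays (-0.26 ± 0.064, limma adjusted p = 0.00649). GARS1, the glycyl-tRNA synthetase of both compartments, read 10.79, 10.89, 10.85 and 10.88 in H2O2 arrays, against 11.14, 11.03, 11.23 and 10.97 in untreated arrays (-0.24 ± 0.072, limma adjusted p = 0.0193). Its call was lost without H2O2 replicate 1 (adjusted p = 0.0636) or untreated replicate 1 (adjusted p = 0.0593).

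The other 12 cytosolic enzymes were not called. KARS1, which like GARS1 serves both compartments, had -0.12 ± 0.070, QARS1 (glutamine) -0.11 ± 0.066 and EPRS1, a single protein that charges glutamate and proline, -0.085 ± 0.082. QARS1 was apart between groups, at 11.44, 11.42, 11.48 and 11.40 in H2O2 arrays and 11.52, 11.50, 11.66 and 11.49 in untreated arrays, but did not pass (limma adjusted p = 0.23). MARS1 (methionine), FARSA (the alpha subunit for phenylalanine), AARS1 (alanine) and RARS1 (arginine) lay between -0.035 and 0.048. FARSB, the beta subunit, had 0.079, TARS1 (threonine) 0.085, NARS1 (asparagine) 0.10, CARS1 (cysteine) 0.15 and SARS1 (serine) 0.16. CARS1 passed without untreated replicate 3, at 0.22 (adjusted p = 0.0333) against an adjusted p of 0.194 on all arrays. It also passed with array weights. For the 12, a missed threshold leaves room for small changes: the 95% interval of NARS1 ran from -0.044 to 0.25 and that of AARS1 from -0.15 to 0.18.

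**Figure D2:**
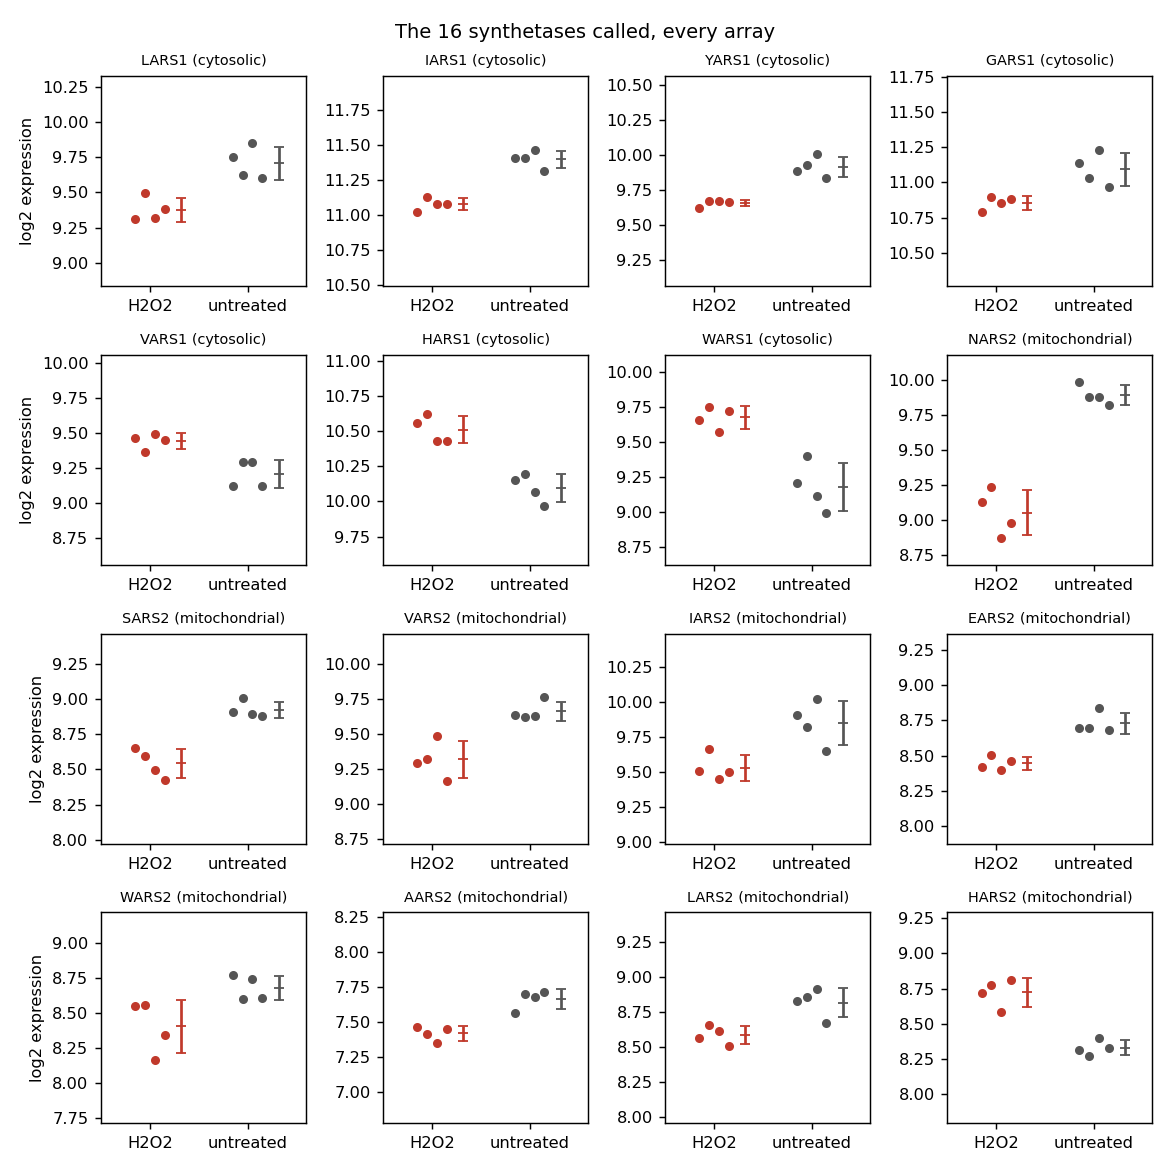
Log2 expression on every array for the 16 synthetases called, H2O2 arrays (red) left of untreated arrays (grey) in each panel, with the mean and SD beside each group of 4. The groups do not overlap in 15 of the 16, and in IARS2 they overlap through 1 array of each group.

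By the roles of the enzymes, 2 of 7 members of the multisynthetase complex fell and 0 rose (median -0.11), while outside it 3 of 12 cytosolic enzymes rose and 2 fell (median 0.094). Of 18 class I enzymes 8 fell and 2 rose, and of 16 class II enzymes 4 fell and 2 rose; EPRS1 joins both classes. Of the 13 cytosolic enzymes listed for the amino acid response 4 fell and 2 rose, and of the other 6, 1 rose and 0 fell. The 7 cytosolic enzymes printed above with a C/EBP-ATF response element held 2 falls, GARS1 and IARS1, and 0 rises. They ranged from -0.32 to 0.15 with a median of 0.014. The 9 with a window and no such match held 2 rises, HARS1 and WARS1, and 0 falls, with a median of 0.048. Over all genes 34.0% were called, 19.2% higher and 14.8% lower. The share called was 28.6% in the complex, 41.7% outside it, 55.6% in class I and 37.5% in class II. It was 46.2% in the response group, 16.7% outside it, 28.6% with the element and 22.2% without. Differences between these small groups were not tested. Groups apart on the arrays numbered 17 of 35 synthetases, 8 cytosolic and 9 mitochondrial, beside 33.7% of all genes.

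To compare compartments within an amino acid, each mitochondrial enzyme was set against its cytosolic counterpart in 16 pairs, with FARSA for FARS2 and EPRS1 for both EARS2 and PARS2. The value tested was the log2 ratio, cytosolic over mitochondrial, within each array, and only its change between groups was read. Both enzymes of a pair were called in 5 pairs. Histidine (both higher), isoleucine and leucine (both lower) moved the same way, and valine and tryptophan moved opposite ways, with the cytosolic enzyme higher and the mitochondrial enzyme lower.

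Over the 16 pairs the change in ratio was above 0 in 10 and below 0 in 6, with a median of only 0.0245. In 5 of the 16 pairs the ratio did not overlap between groups, and in all 5 it was higher in H2O2 arrays. Each of these had an exact two-sided permutation p of 0.0286, the smallest that 4 arrays against 4 allow, and 0.0914 after Benjamini-Hochberg adjustment over the 16, so 0 pairs passed. At this smallest p a pair can pass only where at least 10 of the 16 reach it. A limma fit with the 16 ratios set beside all genes, added after the values were seen, called 6. These were the 5 pairs without overlap and AARS1 with AARS2. Beside these counts, 33.7% of all single genes did not overlap between groups and 34.0% were called. The share over ratios of other gene pairs was not computed.

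The change in ratio was largest for NARS1 over NARS2, at 0.94 ± 0.072 in that limma fit (95% interval 0.78 to 1.09, adjusted p = 2.793e-07). The asparagine ratio lay between 1.69 and 1.91 in H2O2 arrays and between 0.78 and 0.96 in untreated arrays. WARS1 over WARS2 changed by 0.77 ± 0.10 (limma adjusted p = 4.649e-05), VARS1 over VARS2 by 0.58 ± 0.088 and SARS1 over SARS2 by 0.54 ± 0.064. EPRS1 over EARS2 (0.20 ± 0.069) and AARS1 over AARS2 (0.26 ± 0.091) were smaller. The serine ratio was tight, at 2.23 to 2.27 in H2O2 arrays and 1.63 to 1.81 in untreated arrays.

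By contrast, HARS1 over HARS2 changed by 0.024 with a 95% interval of -0.16 to 0.21, and IARS1 over IARS2 by -0.0013 with an interval of -0.15 to 0.15. In these pairs a difference in change as large as that of valine, serine, tryptophan or asparagine lay outside the interval. YARS1 over YARS2 (-0.20 ± 0.082) and MARS1 over MARS2 (-0.20 ± 0.081) were below 0 and did not pass (limma adjusted p = 0.0766 and adjusted p = 0.0786).

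**Figure D3:**
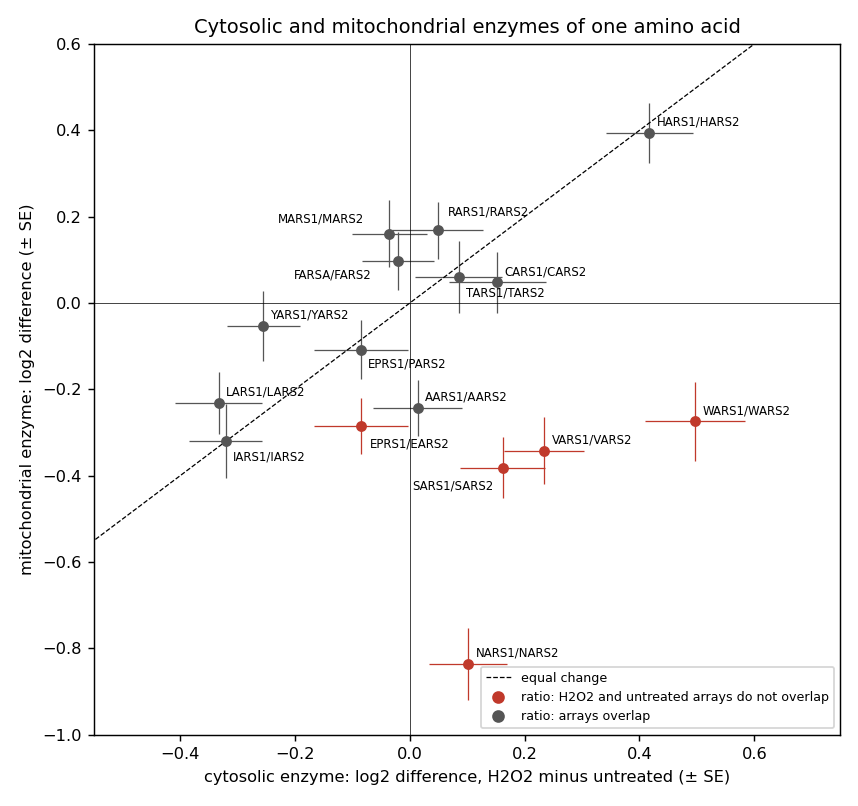
Log2 difference of each cytosolic enzyme (x axis) against that of its mitochondrial counterpart (y axis), H2O2 minus untreated with standard errors, for 16 pairs. The dashed line marks equal change. Red pairs, whose ratio does not overlap between the 4 H2O2 and 4 untreated arrays, all lie below the line. NARS1 and NARS2 lie farthest from it. Histidine, isoleucine, threonine and EPRS1 with PARS2 lie on it or close to it.

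The neighbours across shared promoters were read in the same fit. In 7 cases a synthetase start had a measured gene starting in the opposite direction within 500 bases; these were chosen by position, after the synthetase values were known. Besides HARS1 and HARS2, WDR25, with 157 bases between its start and a WARS1 start, rose with WARS1 (0.37 ± 0.074, limma adjusted p = 0.00122). In the remaining 5 cases the synthetase and its neighbour were not both called. Beside these calls, 34.0% of all genes were called, 19.2% higher and 14.8% lower. The share of other opposite-facing gene pairs called together was not computed, and a link between neighbours was not tested. MRPS12, a mitochondrial ribosomal protein gene that faces SARS2, had 0.14 ± 0.090 where SARS2 fell, and UBFD1, which faces EARS2, had -0.10 ± 0.067, and neither was called. TERF2IP, a telomere protein gene facing KARS1, rose (0.25 ± 0.072, limma adjusted p = 0.0169), and LYRM4, of iron-sulfur cluster assembly, facing FARS2, fell (-0.22 ± 0.065, limma adjusted p = 0.0188), while KARS1 and FARS2 were not called. ORC3, a replication origin gene facing RARS2, was not called (-0.18 ± 0.077).

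Of 8 partners and relatives of the synthetases measured, 1 was called, beside 34.0% of all genes. AIMP1, a scaffold of the multisynthetase complex, had 8.38, 8.42, 8.18 and 8.34 in H2O2 arrays, against 8.51, 8.43, 8.43 and 8.48 in untreated arrays (-0.13 ± 0.070, limma adjusted p = 0.172). The mitochondrial route to glutaminyl-tRNA, which amidates mischarged tRNA in place of a dedicated synthetase, was not called in any of QRSL1 (0.018), GATB (-0.12) and GATC (-0.012), nor was the formylating enzyme MTFMT (0.17). The proofreaders DTD1 (-0.054) and DTD2 (0.14), which clear D-amino acids from tRNA, were not called. TARS3, a relative of TARS1, fell: it had 7.40, 7.38, 7.15 and 7.29 in H2O2 arrays, against 7.63, 7.73, 7.91 and 7.80 in untreated arrays (-0.46 ± 0.080, limma adjusted p = 0.000449).

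Of 23 genes for tRNA maturation and export 8 rose and 4 fell, with a median of 0.0998. POP1, a subunit of ribonuclease P, rose by 0.68 ± 0.10, ELAC1, a tRNA 3′ processing enzyme that lay below the array median on 7 of 8 arrays, by 0.57 ± 0.082, and RPP38, also of ribonuclease P, by 0.39 ± 0.074. POP7 (-0.54 ± 0.089), XPOT, which exports tRNA from the nucleus (-0.53 ± 0.073), and THG1L, which adds the guanosine that histidyl-tRNA synthetase recognises (-0.26 ± 0.078), fell. THG1L thus fell while HARS1 and HARS2 rose. Among 48 tRNA modification genes 4 rose and 7 fell (median -0.038). By share, 52.2% of the maturation and export genes and 22.9% of the modification genes were called, beside 34.0% of all genes. ADAT1, a tRNA adenosine deaminase, stood out with 0.78 ± 0.079, followed by TRMT6 (0.28 ± 0.069) and FTSJ1 (0.21 ± 0.075), and ELP2 (-0.32 ± 0.070), TPRKB (-0.28 ± 0.086) and GTPBP3 (-0.27 ± 0.071) fell most.

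The amino acid response genes outside the synthetases held more falls than rises: of 30 measured, 14 fell and 6 rose, with a median of -0.17. The share called was 66.7%, beside 34.0% of all genes. ATF4 itself read 10.27, 10.35, 10.19 and 10.11 in H2O2 arrays, against 10.73, 10.76, 10.67 and 10.62 in untreated arrays (-0.46 ± 0.071, limma adjusted p = 0.000155). DDIT4, an mTORC1 inhibitor, fell by 1.11, and CTH, of cysteine synthesis, by 0.87. PHGDH, the entry to serine synthesis, fell too, at 10.56 to 10.66 in H2O2 arrays and 11.51 to 11.71 in untreated arrays. PPP1R15A, which reverses eIF2 phosphorylation, rose by 0.99, SESN2, a leucine sensor, by 0.88 and NUPR1 by 0.47. ASNS, which makes asparagine, was lower by a log2 difference of -0.57 ± 0.064, beside the fall of NARS2 and a NARS1 value of 0.10 ± 0.068 that was not called. The per-array median deviation of these 30 genes ran from -0.28 to -0.17 in H2O2 arrays and from -0.064 to 0.022 in untreated arrays, with no overlap, whereas that of the cytosolic synthetases overlapped between groups; the difference between these lists was not tested.

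Genes induced by interferon-gamma, listed for WARS1, went both ways: of 6 measured, 2 rose and 1 fell, beside 34.0% of all genes called. The transcription factor IRF1 (0.39 ± 0.069, limma adjusted p = 0.000505) and the peptide transporter TAP1 (0.34 ± 0.065, limma adjusted p = 0.00103) rose, and the immunoproteasome subunit PSMB9 fell (-0.30 ± 0.081, limma adjusted p = 0.0109). GBP2 (0.33 ± 0.13), CXCL10 (-0.020) and IDO1 (-0.023) were not called, and their means lay below the array median.

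**Figure D4:**
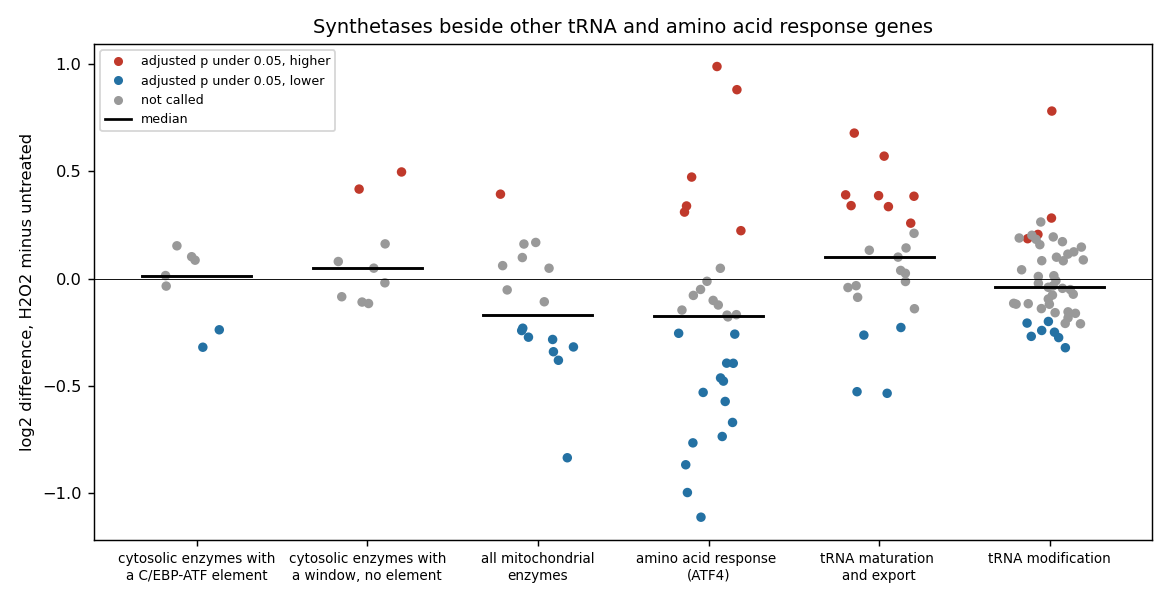
Log2 difference, H2O2 minus untreated, of the cytosolic synthetases with a promoter window, split by a C/EBP-ATF response element (7 with, 9 without), all 16 mitochondrial synthetases, 30 amino acid response genes, 23 genes of tRNA maturation and export and 48 of tRNA modification. Each point is a gene, red called higher, blue called lower, grey not called, and bars are medians: 0.014, 0.048, -0.17, -0.17, 0.0998 and -0.038 from left to right.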

How the data were processed

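The deposited values are log2 expression levels, 1 per probe set on each array, as their range shows. The authors' summarising and normalizing steps are not given in the sources used here. Per the submitters' processing notes limma was used, for a purpose they leave unstated. It has 32321 probe sets, of which 19158 carry 1 symbol, 1388 several and 11775 none. All per-sample columns were used, and the number of arrays limits the precision.

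Genes were tested with limma 3.58.1 in R 4.3.3 (1 mean per group, empirical Bayes, Benjamini-Hochberg over 18404 genes). The method was tested on simulated data with known changes. It recovered 16% of log2 changes of 0.25, 76% of those of 0.5 and 100% of those of 1. Far fewer genes were changed in the simulation than were called here. Pair ratios were tested by exact permutation over 70 splits. Tables and figures used Python 3.11.15. No pair of arrays shared over 0.00619% identical values.

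The members, gene lists and motifs were chosen with earlier results of these data known. All 35 members are named whatever their values. Of other lists, up to 3 called rises and 3 called falls are named, and all of lists of 8 or fewer, with 4 genes as a check of the treatment. ATF4 and ASNS fall outside this rule and were chosen after their values were seen. Listed genes without a probe set of 1 symbol were not analysed here. Same-numbered replicates shared no deviation (correlations -0.25 to 0.094), so the numbers were not taken to pair cultures.

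Alternatives were a replicate block, quantile normalization, median centring, a filter on dim genes, the mean of probe sets, a trended robust prior, array weights and leaving out each array. Promoter sequences are RefSeq's, GRCh38.p14.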

Additional observations from a re-analysis of the deposited data

Results flagged for a closer look

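Across 70 groups of 4 arrays, 5 synthetase values lay far from the other 3 of their group, with a gap, as a share of the group's range, above Dixon's 95% critical value; chance gives about 1 in 20 such groups. H2O2 replicate 3 was low for CARS1 (7.83). Untreated replicate 3 was high for QARS1 (11.66) and EARS2 (8.84). Untreated replicate 4 was low for TARS2 (7.81) and high for VARS2 (9.76). EARS2 and VARS2 were called lower with and without those arrays, and CARS1, QARS1 and TARS2 were not called on all arrays.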

How the results depend on the processing

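Of the 16 synthetases called, 12 kept direction and call in all 15 other settings, and 0 reversed in any; GARS1, VARS1, LARS2 and WARS2 lost theirs only when single arrays were left out. Of 19 not called, 16 stayed so; CARS1, MARS2 and RARS2 passed in some. Mitochondrial enzymes called higher numbered 1 on all arrays, 2 with dim genes left out, 2 with the trended robust prior, 3 with array weights and 1 to 3 without single arrays. Without single arrays, cytosolic enzymes called lower numbered 3 to 4 and higher 2 to 4, and mitochondrial enzymes called lower 6 to 8. With the replicate number as a block these counts were 4, 3 and 8, with 1 mitochondrial enzyme higher, and no synthetase's call changed. Over all genes 2732 were called lower, 4111 with array weights, and 2470 lower and 3288 higher with the block. Array centring and quantile normalization changed no synthetase's call. By exact permutation 0 pairs passed in any setting, 5 at an unadjusted p under 0.05 on all arrays, and 6 in the added limma fit. Since 10 pairs would have to reach the smallest p of 0.0286 for any to pass, this count of 0 says nothing about stability. The pair ratios were not run with the block, since 4 numbered pairs cannot give an exact p under 0.125. The cause of these changes was not tested. Precision is limited by the 4 arrays per group.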
